A study of Mus musculus and Homo sapiens with 34 samples.

Results

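The genes of glycolysis, of the response to low oxygen and of fructose metabolism were followed across 7 RNA-seq experiments in lung adenocarcinoma cultures. A list of 43 genes was looked up by symbol in every count table, in upper case in the human tables. All 43 were found in at least 1 table and 34 in all 7, where the tables list between 16553 and 26245 genes each. Between 36 and 42 of the 43 were listed in a table, and between 36 and 41 had enough reads to be tested. Mouse Ca9 is listed as Car9, and human Gpi1 as GPI, so these rows were used.

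The 34 poly(A) RNA libraries form 17 groups of 2, 22 libraries from mouse cultures and 12 from human lines. The 3154 organoids carry the alleles p53frt, Rosa-FSF-CreERT2 and Hnf4aflox beside a further allele shared by all mouse cultures. They were given 2 mM 4-hydroxytamoxifen (4OHT), which activates the CreERT2 recombinase and so deletes Hnf4a, or its solvent ethanol, for 2 days, and RNA was taken 2 weeks later. The dose is as the labels print it, and whether it is that of the medium or of a stock is not given in the sources used here. In a second 3154 experiment, organoids received ethanol or 4OHT, and vehicle or 3 nM MRTX1133, a small-molecule inhibitor, for 48 hours, and the labels do not give the order of the agents or the 4OHT dose. Organoids 1027B and the cell line 3311 share p53frt and Rosa-FSF-CreERT2 and carry floxed Foxa1 and Foxa2, and no deletion treatment is named for them. The 1027B organoids received vehicle, 10 nM trametinib (an inhibitor of the kinase MEK) or 20 nM MRTX1133, and 3311 cells received vehicle or 50 nM trametinib, each for 48 hours. H358 and H1651, both established human lung adenocarcinoma lines, were each treated with 20 nM trametinib or its vehicle, again for 48 hours. H1651 cells with a lentiviral HNF4A construct were grown with or without 1 µg/mL doxycycline for 7 days. Each mouse culture is a single named culture, and nothing in the labels says that the 2 replicates of a group came from separate cultures or animals. The p-values therefore measure the spread between these libraries, which may be technical. In bulk RNA, fewer cells of a type and less RNA per cell cannot be told apart.

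Glycolysis breaks glucose down to pyruvate, which cells either burn in mitochondria or reduce to lactate and export. When oxygen is low, the prolyl hydroxylases of the EGLN family no longer mark hypoxia-inducible factors (HIF) for destruction, and HIF raises glucose transporters, most glycolytic enzymes, lactate export and a set of stress genes. Fructose enters cells through SLC2A5, is phosphorylated by ketohexokinase (KHK), mainly in gut, liver and kidney. HNF4α is a nuclear receptor of gut and liver identity, and in those organs the liver-type pyruvate kinase gene Pklr and the gluconeogenic gene Pck1 are among its known targets.

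Promoter sequence is shown for 4 members that HIF is known to drive and that fell with Hnf4a deletion, and for Pklr, which fell furthest. The windows are RefSeq's, on GRCm38.p6, from 250 bases before to 50 bases after a gene's start, read 5′ to 3′ on the gene's strand. Capitals in the first 4 mark ACGTG and GCGTG, the core letters to which HIF binds, on either strand, and neighbouring matches can overlap. Capitals in Pklr mark GTTA, any 4 bases and TTAAC, a relaxed form of the palindrome bound by HNF1 factors, spelled this way after the window had been read. Bnip3 (a mitophagy receptor) lies at chr7:138909457-138909756, minus strand, Egln3 (a HIF prolyl hydroxylase) at chr12:54203825-54204124, minus strand, Hilpda (a lipid droplet protein) at chr6:29272376-29272675, plus strand, Pgk1 (phosphoglycerate kinase) at chrX:106186850-106187149, plus strand, and the second of the 2 windows of Pklr at chr3:89136373-89136672, plus strand.
Bnip3: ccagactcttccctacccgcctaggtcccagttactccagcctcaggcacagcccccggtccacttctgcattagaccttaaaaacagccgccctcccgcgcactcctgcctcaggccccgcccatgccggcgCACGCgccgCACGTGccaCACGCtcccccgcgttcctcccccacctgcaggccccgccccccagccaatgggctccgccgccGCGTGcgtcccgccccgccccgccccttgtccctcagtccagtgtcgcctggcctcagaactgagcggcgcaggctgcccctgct
Egln3: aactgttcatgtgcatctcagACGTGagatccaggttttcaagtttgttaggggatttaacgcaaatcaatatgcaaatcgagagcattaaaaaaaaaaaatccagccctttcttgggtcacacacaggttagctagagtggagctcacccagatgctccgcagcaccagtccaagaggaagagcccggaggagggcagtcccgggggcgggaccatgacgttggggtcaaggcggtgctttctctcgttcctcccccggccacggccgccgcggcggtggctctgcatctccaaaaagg
Hilpda: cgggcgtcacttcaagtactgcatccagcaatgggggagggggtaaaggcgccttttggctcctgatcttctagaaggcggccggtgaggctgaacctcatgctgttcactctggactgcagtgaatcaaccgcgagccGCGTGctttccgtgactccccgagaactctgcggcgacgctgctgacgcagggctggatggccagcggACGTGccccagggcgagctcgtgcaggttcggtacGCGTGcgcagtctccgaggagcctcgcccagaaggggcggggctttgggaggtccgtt
Pgk1: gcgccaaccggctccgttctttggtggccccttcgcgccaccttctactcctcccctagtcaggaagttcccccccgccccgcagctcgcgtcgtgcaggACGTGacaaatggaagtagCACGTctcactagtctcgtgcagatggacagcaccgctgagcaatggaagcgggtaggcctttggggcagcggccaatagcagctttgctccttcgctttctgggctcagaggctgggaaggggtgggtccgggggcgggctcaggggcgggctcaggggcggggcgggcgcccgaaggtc
Pklr: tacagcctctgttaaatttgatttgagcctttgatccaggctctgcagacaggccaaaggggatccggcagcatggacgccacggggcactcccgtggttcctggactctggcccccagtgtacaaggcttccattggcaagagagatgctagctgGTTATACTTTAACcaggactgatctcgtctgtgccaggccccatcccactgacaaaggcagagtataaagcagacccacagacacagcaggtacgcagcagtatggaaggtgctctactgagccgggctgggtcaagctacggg

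The Bnip3 window held 5 of these core matches, the Hilpda window shown 3, Pgk1 2 and Egln3 1. Hilpda also has 2 windows, of which the second is shown. Of the 43 members, 40 had 1 or more windows in the RefSeq table, 58 in all. ACGTG occurred in 28 of the 58 windows (48.3%) and in 19.6% of all 32851 windows, and GCGTG in 29 (50.0%) against 32.4%. The members' windows also held more G and C, with a median of 58.7% against 52.7%, so the shares differ in base composition as well. The relaxed palindrome occurred in 1 member window, that of Pklr, and in 0.189% of all windows. The HNF4-type motif CAAAGTCCA, also searched on both strands, occurred in 0 of 58 member windows and 0.475% of all. A match describes letters only.

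Library totals ran from 19692517 to 45284286 counts. Hnf4a itself fell with 4OHT, by 2.61 on the log2 scale at 2 weeks and by 2.18 and 2.72 in the 48-hour experiment, and HNF4A rose by 1.204 with doxycycline. These counts do not show whether the deleted exons were lost. The MAPK target genes Dusp6, Spry4 and Etv4 fell with trametinib in 1027B, 3311 and H358. In H1651 their log2 changes were -2.997, -2.46 and -2.22, and none passed the test. Levels are counts per 1000000 (CPM) of a library's total count, after scaling that total between libraries. The epithelial markers Epcam, Cdh1, Krt8, Krt18, Krt19 and Cldn4 summed to between 4071 and 11409.5 CPM in every library. Leukocyte markers summed to at most 8.75 CPM. In the H1651 libraries of both experiments the epithelial sum was mostly keratin 8 and 18. EPCAM stood there at 0.992 to 3.81 CPM in the doxycycline experiment and 1.24 to 2.50 CPM in the trametinib experiment. In 3311, Cldn4 stood at 0.186 to 0.956 CPM. Fibroblast markers summed to at most 1.69 CPM in the organoids. In 3311 the fibroblast marker Pdgfra stood at 7.45 to 13.7 CPM and Col1a1 at 1.35 to 6.70 CPM, with Col1a2 at 0, and the leukocyte marker Cd68 stood at 0.951 to 4.87 CPM, with Ptprc at 0.

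The heat map of changes shows all members in the 11 comparisons with a matching control. A member was called at an adjusted p under 0.05 in edgeR's quasi-likelihood test, corrected over all genes tested in its table. Comparisons from the same table can share control libraries. Trametinib and MRTX1133 in 1027B share the vehicle group, and each group of the 48-hour 3154 experiment enters 2 comparisons.

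**Figure D1:**
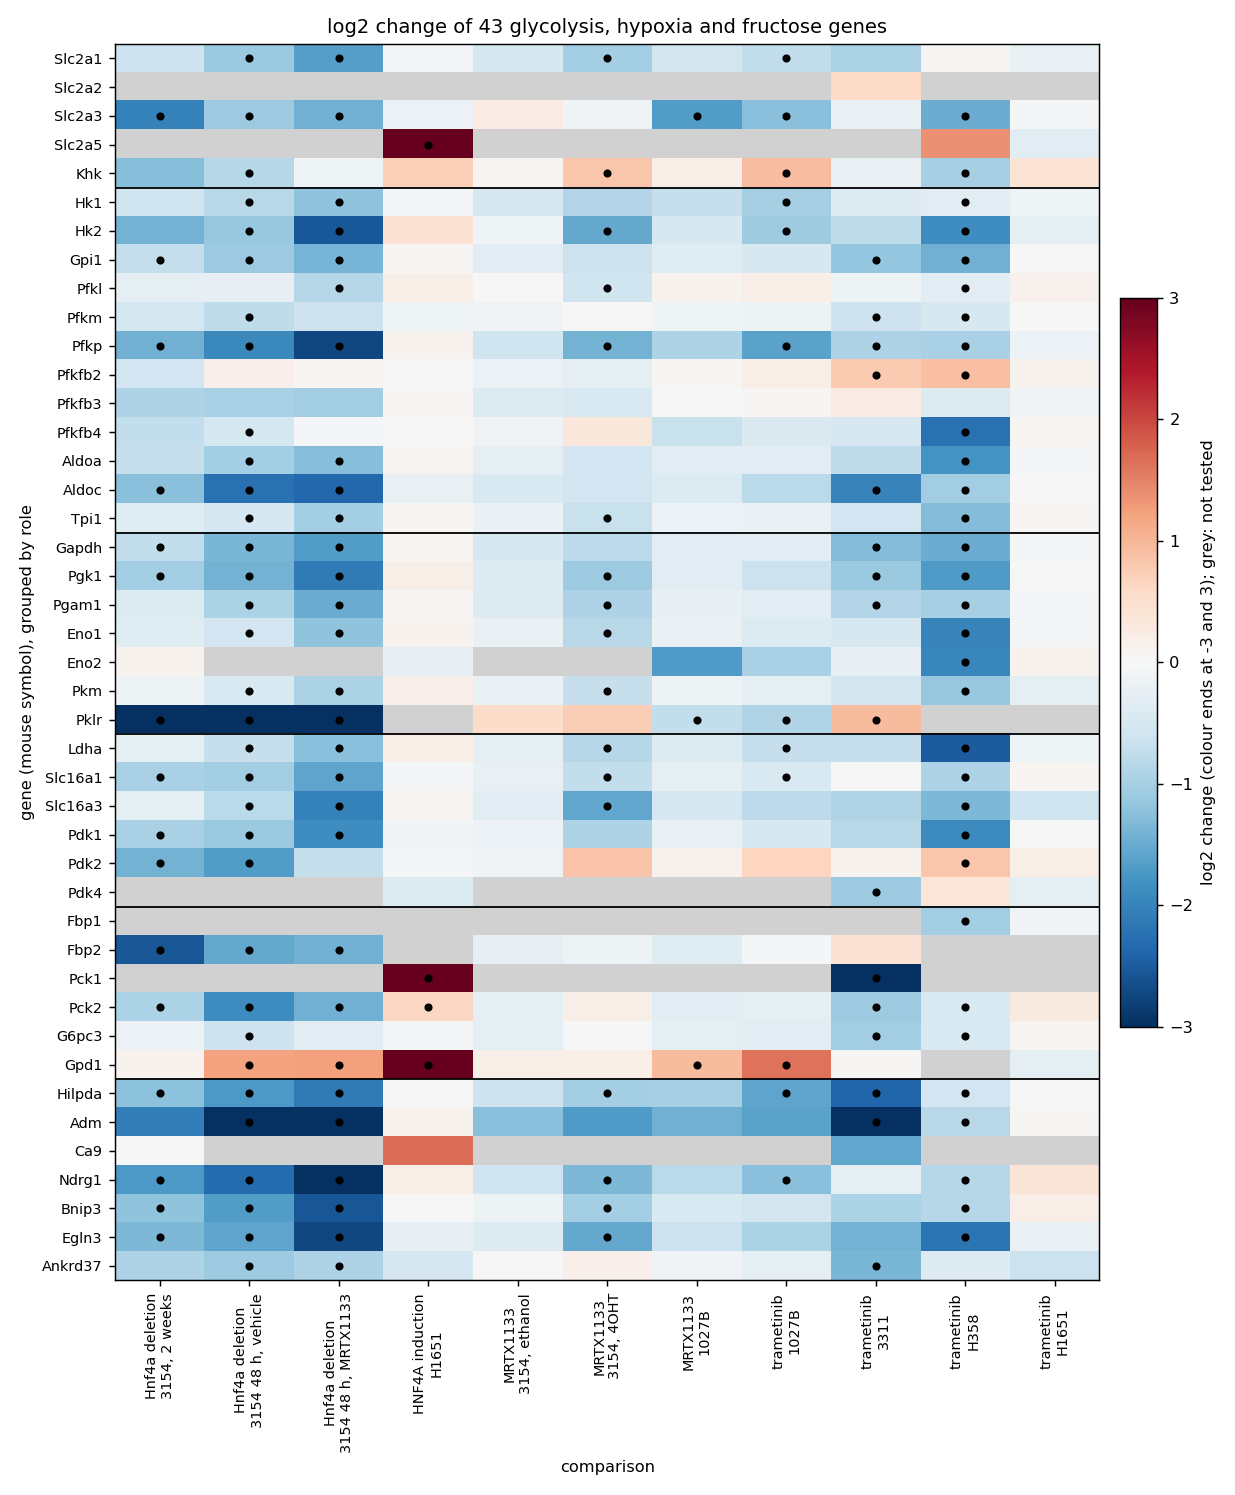
Each cell is the log2 change of a gene (rows, mouse symbols, in 6 blocks from glucose and fructose entry at the top to the hypoxia response at the bottom) in a comparison (columns); blue is lower and red higher than the control, dots mark called genes and grey cells were not tested. The columns of Hnf4a deletion, MRTX1133 after 4OHT and trametinib in H358 are mostly blue, and those of MRTX1133 in 3154 with ethanol and of trametinib in H1651 hold no dot.

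Deleting Hnf4a in the 48-hour experiment lowered nearly the whole list. In vehicle, 32 of the 36 tested members fell and 1, Gpd1, rose, beside 15.7% of all genes called lower and 15.3% called higher. The median log2 change was -1.08 over the members and 0.01 over all genes tested. The glycolysis genes, from hexokinase to pyruvate kinase with the Pfkfb regulators, summed to 39224 and 32049 CPM in the ethanol and vehicle libraries. In the 4OHT and vehicle libraries they summed to 19736 and 17660 CPM. The members called differed widely in size, from Pkm at -0.45 to Pklr at -5.59. Most transcript came from a few genes. Per kilobase of exon, Gapdh stood at 2312 ± 515 (SD, n = 2) CPM in ethanol and vehicle, Pgk1 at 2195 ± 328, Aldoa at 1552 ± 266 and Pklr at 0.376 ± 0.183.

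All 3 tested genes of sugar entry fell in vehicle. Khk, the first enzyme of fructose breakdown, changed by -0.87 ± 0.15 (SE, adjusted p = 0.00478), from 13.2 and 13.8 CPM to 6.82 and 7.99. Slc2a1, the common glucose transporter, stood at 847 and 716 CPM with ethanol and at 383 and 340.5 CPM with 4OHT in vehicle, a log2 change of -1.11 ± 0.15 (SE, adjusted p = 0.00173). Slc2a3, a high-affinity glucose transporter, changed by -1.08 ± 0.23 (SE, adjusted p = 0.0107), from 79.0 and 51.7 CPM to 34.5 and 27.1. Both 4OHT libraries of these called genes lay below both ethanol libraries, as did those of 32.5% of all genes tested. In upper glycolysis 9 of 12 members fell in vehicle, while Pfkl, Pfkfb2 and Pfkfb3 did not pass. Pfkp, the platelet form of phosphofructokinase, fell 3.79-fold, from 507 and 331 CPM to 129.98 and 91.2, a log2 change of -1.92 ± 0.29 (SE, adjusted p = 0.00275). Aldoc, aldolase C, fell 4.70-fold, from 397 and 271 CPM to 80.1 and 62.0, a log2 change of -2.23 ± 0.32 (SE, adjusted p = 0.00204). Both showed a gap between the groups wider than the spread within either. The other 7 called enzymes of upper glycolysis, Hk2, Gpi1, Aldoa, Hk1, Pfkm, Tpi1 and Pfkfb4, ran from -1.14 for Hk2 to -0.52 for Pfkfb4.

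All 6 tested members of lower glycolysis fell. Pgk1, which makes the first ATP of the pathway, fell 2.68-fold, from 5446 and 4404 CPM to 1967 and 1706, a log2 change of -1.42 ± 0.18 (SE, adjusted p = 0.00133). Gapdh, often used as a reference gene, changed by -1.37 ± 0.22 (SE, adjusted p = 0.00368), from 11063 and 8051 CPM to 3883 and 3537. Pklr, the pyruvate kinase of liver and red cells, was the low-count member. It had 19 and 39 counts with ethanol and 1 and 0 with 4OHT (adjusted p = 0.00443), a ratio of summed counts over library totals of 51.7 (95% interval 8.91 to 2075) that covers counting error only. Pgam1, phosphoglycerate mutase, and the enolase Eno1 changed by -0.95 and -0.57. The value of Eno1 is uncertain, since its near-identical copy Eno1b carried 9.30% of the counts of Eno1 in this table and 8.26 to 8.38% in the other organoid tables. Pkm, the other pyruvate kinase, carried far more transcript and its call was lost under 4 of the other settings, with adjusted p from 0.0328 to 0.0721.

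The genes that decide what happens to pyruvate fell as well, 5 of 5. Slc16a1, a lactate transporter, changed by -1.05 ± 0.16 (SE, adjusted p = 0.00287), from 171 and 216 CPM to 93.5 and 93.0. Pdk1 and Pdk2, kinases that switch off pyruvate dehydrogenase, changed by -1.12 ± 0.21 (SE, adjusted p = 0.0065) and -1.66 ± 0.32 (SE, adjusted p = 0.00675). Slc16a3, the lactate exporter of glycolytic cells, and the lactate dehydrogenase gene Ldha changed less, by -0.80 and -0.69. Among the gluconeogenic and glycerol phosphate genes, Pck2, the mitochondrial PEP carboxykinase, fell 3.72-fold, from 291 and 317 CPM to 81.5 and 82.1, a log2 change of -1.89 ± 0.13 (SE, adjusted p = 0.000141). Fbp2, a fructose bisphosphatase, changed by -1.54 ± 0.15 (SE, adjusted p = 0.000563), from 114 and 133 CPM to 39.9 and 45.1. Gpd1, which turns a glycolytic intermediate into glycerol phosphate, went the other way, from 55.0 and 73.1 CPM to 141 and 154, a log2 change of 1.201 ± 0.17 (SE, adjusted p = 0.0019). It was the 1 member called higher.

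The hypoxia response genes moved furthest as a group, with 6 of 6 tested members lower and a median log2 change of -1.70. Adm, the vasodilator adrenomedullin, stood at 159.9 and 61.4 CPM with ethanol and at 6.79 and 4.42 CPM with 4OHT, a log2 change of -4.30 ± 0.52 (SE, adjusted p = 0.00115). Its ethanol libraries differed from each other more than 2-fold, yet both lay far above the 4OHT libraries. Ndrg1, a stress-induced gene, fell 4.97-fold, from 4630.1 and 3491 CPM to 864 and 768, a log2 change of -2.31 ± 0.21 (SE, adjusted p = 0.000438). Hilpda, from 379 and 353.6 CPM to 115 and 107, changed by -1.72 ± 0.12 (SE, adjusted p = 0.000141), and Bnip3 from 1354 and 1343 CPM to 452 and 389, by -1.68 ± 0.16 (SE, adjusted p = 0.000476). Egln3 changed by -1.58 ± 0.24 (SE, adjusted p = 0.00274) and Ankrd37 by -1.08 ± 0.14 (SE, adjusted p = 0.00145).

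Under MRTX1133 the same deletion lowered 28 of 36 members and raised Gpd1 again, beside 14.5% of all genes lower and 13.2% higher. The median over members was -1.44. Adm went from 60.8 and 32.2 CPM to 1.73 and 1.70 and changed by -4.76 ± 0.56 (SE, adjusted p = 0.00103). Ndrg1 fell 8.37-fold, from 3108 and 2260.3 CPM to 287 and 354.3, a change of -3.06 ± 0.22 (SE, adjusted p = 0.000191). Pfkp changed by -2.73 ± 0.30 (SE, adjusted p = 0.000798) and Egln3 by -2.72 ± 0.25 (SE, adjusted p = 0.000414). Hk2, the inducible hexokinase that starts glycolysis, fell 5.83-fold, from 357.9 and 282 CPM to 44.9 and 64.9, a change of -2.54 ± 0.24 (SE, adjusted p = 0.000456). Bnip3 changed by -2.56 ± 0.17 (SE, adjusted p = 0.000146) and Aldoc by -2.36 ± 0.32 (SE, adjusted p = 0.0017). Pklr had 35 and 55 counts with ethanol and 0 and 2 with 4OHT (adjusted p = 0.00271), a ratio of 42.5 (95% interval 11.4 to 356). Gpd1 rose from 69.5 and 75.1 CPM to 156 and 183, a change of 1.23 ± 0.17 (SE, adjusted p = 0.00171). All of these stayed called whichever library was left out, as did 28 of the 29 called members, Hk1 being the exception. The 4 leukocyte markers summed to 2.37 to 5.01 CPM with ethanol and MRTX1133 and to 8.05 to 8.75 CPM with 4OHT and MRTX1133, and the epithelial markers to 7771 to 8023 and 7404 to 8103 CPM. The part of the leukocyte shift in this comparison was not tested.

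Other genes of these pathways were counted from lists outside the 43. Among 21 HIF factors and targets outside the list, 16 fell and 1 rose in vehicle, with a median of -1.22. The most changed of the genes outside the list were Car12, a carbonic anhydrase, at -4.68 ± 1.03 (SE, adjusted p = 0.015, mean CPM 3.80 against 0.146), Pgam2, the muscle phosphoglycerate mutase, at -3.42 ± 0.74 (SE, adjusted p = 0.0108, mean CPM 4.20 against 0.387), and Ero1l, an oxidase of the endoplasmic reticulum, at -3.28 ± 0.40 (SE, adjusted p = 0.00113, mean CPM 3380.0 against 348). Of 25 further genes of glucose and fructose metabolism, 10 fell and 4 rose, and of 7 pentose phosphate genes 4 fell, beside 15.7% of all genes lower and 15.3% higher.

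The vehicle comparison leaned on its libraries. Without the second 4OHT vehicle library, 17 members were called in place of 33, and 16 of the 33 were called whichever library was left out: Slc2a1, Pfkp, Aldoc, Gapdh, Pgk1, Pklr, Slc16a1, Fbp2, Pck2, Gpd1 and the 6 hypoxia genes. The summed epithelial markers were at 7888 to 9125 CPM with ethanol and 8394 to 8731 CPM with 4OHT in vehicle, and the 1 fibroblast and 1 endothelial marker listed stayed under 1 CPM.

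**Figure D2:**
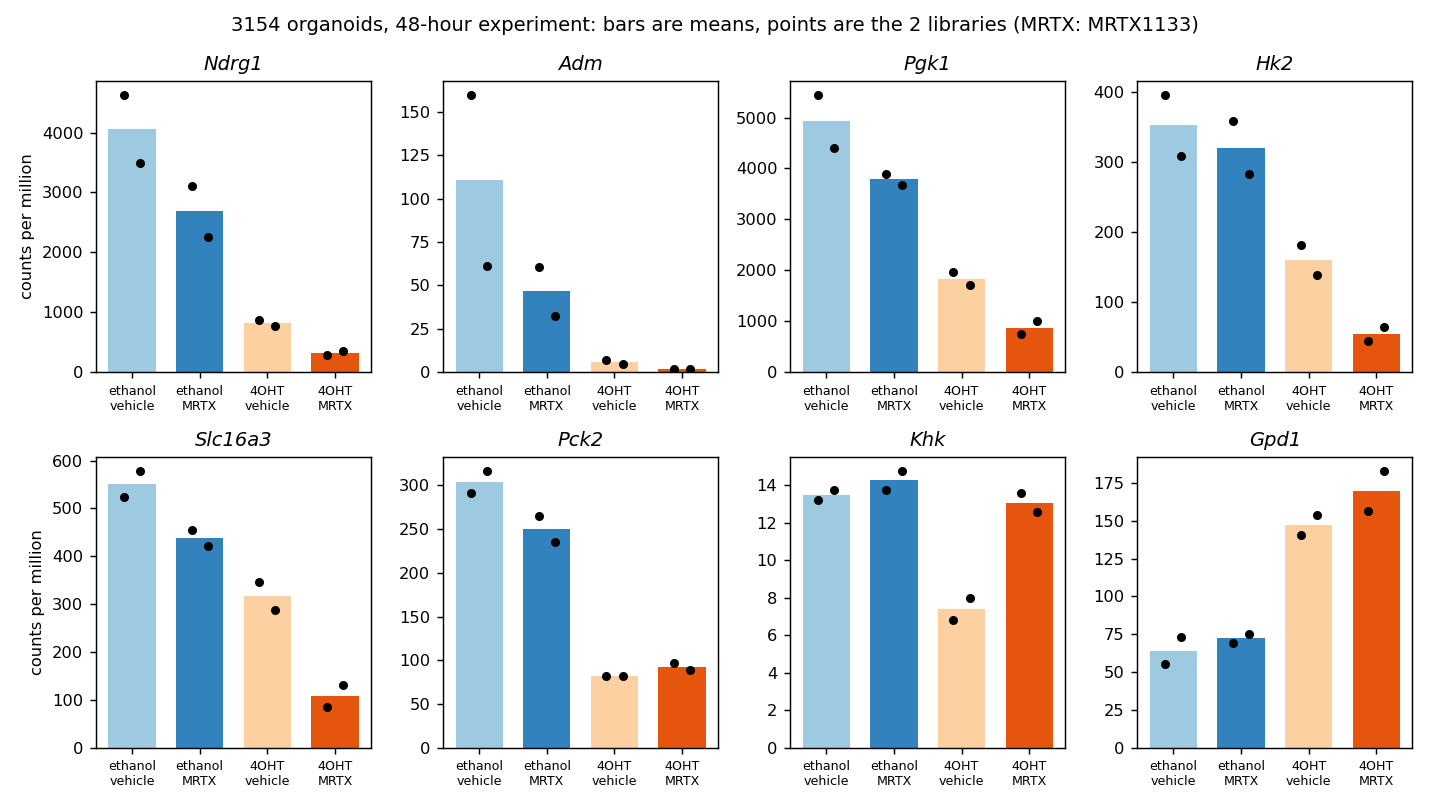
CPM of 8 members (1 panel each) in the 4 groups of the 48-hour 3154 experiment; bars are means and points the 2 libraries. Ndrg1, Adm, Pgk1, Hk2 and Slc16a3 step down from the ethanol groups to 4OHT with vehicle and again to 4OHT with MRTX1133, Pck2 falls with 4OHT alone, and Gpd1 is higher in both 4OHT groups.

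At 2 weeks after 4OHT, 16 of 38 tested members were lower and 0 higher, beside 5.78% of all genes called lower and 4.03% higher. Values for 35 of the 38 were below 0, with a median of -0.83 against 0.02 over all genes. Pklr had 155 and 143 counts with ethanol and 0 and 1 with 4OHT (adjusted p = 0.00669), a ratio of 296 (95% interval 52.7 to 11736). Fbp2 fell 5.89-fold, from 122 and 144 CPM to 21.9 and 23.2, a log2 change of -2.56 ± 0.15 (SE, adjusted p = 0.00386). Slc2a3 fell from 130.4 and 134 CPM to 44.4 and 20.6, a change of -2.03 ± 0.35 (SE, adjusted p = 0.0263). Both 4OHT libraries of these called genes lay below both ethanol libraries, which was so for 30.3% of all genes.

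Ndrg1 fell 3.30-fold, from 2942 and 3918 CPM to 846 and 1233, a log2 change of -1.72 ± 0.24 (SE, adjusted p = 0.0167). Pfkp changed by -1.45 ± 0.17 (SE, adjusted p = 0.0124), from 412 and 382 CPM to 125 and 166, and Aldoc by -1.25 ± 0.13 (SE, adjusted p = 0.00971), from 246 and 237 CPM to 108 and 94.5. These 3, with Pklr, Fbp2 and Slc2a3, were the 6 members called whichever library was left out. Pdk2 changed by -1.42 ± 0.27 (SE, adjusted p = 0.0338) and Egln3 by -1.35 ± 0.26 (SE, adjusted p = 0.0349), and the call of each was lost without the first 4OHT library, where 6 members were called in all. That library had the lower level of Egln3, 185 and 317 CPM in the 2 libraries of its group, and also of Hk2, with 97.7 and 200.3 CPM against 323 and 472 with ethanol. Hk2 at -1.42 and Adm at -2.08 did not pass the test, with adjusted p of 0.0688 and 0.158. Gpd1, at 185 and 202 CPM and 222 and 192 CPM, had overlapping groups here and a log2 change of 0.10.

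By role, the 2-week calls were 1 of 3 for sugar entry, 3 of 12 in upper and 3 of 7 in lower glycolysis, 3 of 5 for pyruvate, 2 of 4 for gluconeogenesis and glycerol phosphate, and 4 of 7 in the hypoxia response. Outside the list, Pgam2 changed by -5.003 ± 0.72 (SE, adjusted p = 0.0173, mean CPM 2.92 against 0.0867), Sord, which makes fructose from sorbitol, by -3.80 ± 0.44 (SE, adjusted p = 0.0124, mean CPM 156 against 11.2), and Hkdc1, a hexokinase relative, by -3.78 ± 0.36 (SE, adjusted p = 0.00795, mean CPM 7.70 against 0.551). The 3 endothelial markers summed to 5.07 to 5.93 CPM with ethanol and 2.17 to 2.55 CPM with 4OHT. The 4 leukocyte markers went the other way, from 5.44 to 6.73 CPM with ethanol to 6.89 to 8.69 CPM with 4OHT. The part of such cells in these changes was not tested.

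The response to MRTX1133 was read separately in organoids given ethanol and organoids given 4OHT. With ethanol, 0 of 36 members were called by edgeR, beside 0.349% of all genes. There, 7 had an unadjusted p under 0.05, beside 11.8% of all genes, and DESeq2 called 1, beside 2.42% of the genes it gave an adjusted p. That 1 was Hilpda, which stood at 379 and 353.6 CPM in vehicle and 245 and 232 CPM in MRTX1133. After 4OHT, 16 members were lower and 1 higher, beside 2.54% of all genes lower and 2.10% higher. The MAPK targets Dusp6, Spry4 and Etv4 changed by -0.09, -0.41 and -0.38 with ethanol, none of them called, and by -0.60, -1.52 and -1.002 after 4OHT, where Spry4 and Etv4 were called. Hnf4a itself changed by -0.86 after 4OHT. The median over members was -0.26 with ethanol and -0.68 after 4OHT. In the test of the difference between these changes, edgeR called 0 of 36 members and 0% of all genes, 17 members had an unadjusted p under 0.05, beside 7.44% of all genes, and DESeq2 called 0, beside 0.296%.

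The 17 calls after 4OHT included Slc16a3, which went from 347 and 287 CPM to 84.6 and 131, a log2 change of -1.56 ± 0.21 (SE, adjusted p = 0.0177). Hk2 fell 2.91-fold, from 181 and 139 CPM to 44.9 and 64.9, a change of -1.54 ± 0.24 (SE, adjusted p = 0.0198). Egln3 went from 484 and 407 CPM to 113 and 194, a change of -1.54 ± 0.24 (SE, adjusted p = 0.02). In these called genes both inhibitor libraries were below both vehicle libraries, as in 33.2% of all genes. Pfkp changed by -1.41 ± 0.29 (SE, adjusted p = 0.038), Ndrg1 by -1.35 ± 0.21 (SE, adjusted p = 0.0198), Pgk1 by -1.08 ± 0.18 (SE, adjusted p = 0.0233), Bnip3 by -1.03 ± 0.16 (SE, adjusted p = 0.0198) and Hilpda by -1.02 ± 0.11 (SE, adjusted p = 0.0131). Khk was the 1 member higher, at 6.82 and 7.99 CPM in vehicle and 13.6 and 12.6 CPM in MRTX1133, a change of 0.82 ± 0.15 (SE, adjusted p = 0.0279). The MRTX1133 libraries lay beside those of ethanol and vehicle, 13.2 and 13.8 CPM. Gpd1, Pck2 and Fbp2 were not called, with log2 changes of 0.20, 0.18 and -0.15.

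These 17 calls depended on every library. Leaving out any 1 of the 4 libraries left 0 to 2 members called, and 0 of the 17 stayed called in all 4 cases, while a fit to these 4 libraries alone called 27. Of the other pathway genes, Hif3a, an inhibitory HIF subunit, changed by -1.88 ± 0.42 (SE, adjusted p = 0.0481, mean CPM 20.2 against 5.48), Stc2, a secreted stanniocalcin, by -1.46 ± 0.17 (SE, adjusted p = 0.0137, mean CPM 84.9 against 30.8), and Sord by 1.27 ± 0.23 (SE, adjusted p = 0.0267, mean CPM 18.9 against 45.5). The 4 leukocyte markers summed to 5.04 to 6.07 CPM in vehicle and 8.05 to 8.75 CPM in MRTX1133, and the epithelial markers to 8394 to 8731 and 7404 to 8103 CPM. Their part was not tested.

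The members called on raising HNF4A in H1651, in the fit with no block, were SLC2A5, PCK1, PCK2 and GPD1, of fructose, gluconeogenic and glycerol phosphate metabolism. Of 39 tested members, 4 were higher and 0 lower, beside 1.04% of all genes higher and 0.386% lower. SLC2A5, the fructose transporter, rose 31.6-fold, from 0.577 and 0.458 CPM to 19.4 and 13.3, a log2 change of 4.98 ± 0.29 (SE, adjusted p = 0.00124). GPD1 rose 23.7-fold, from 0.865 and 0.877 CPM to 22.7 and 18.5, a change of 4.56 ± 0.20 (SE, adjusted p = 0.000416). PCK1, the cytosolic PEP carboxykinase and the rate-setting gluconeogenic enzyme, had 1 and 0 counts without doxycycline and 110 and 82 with it (adjusted p = 0.00337), a ratio of 199 (95% interval 35.2 to 7889). Each of these 3 stayed called whichever library was left out.

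PCK2 rose by 0.62 ± 0.11 (SE, adjusted p = 0.044) on the log2 scale, from 34.8 and 39.3 CPM to 52.8 and 61.4, and lost its call without the first library grown without doxycycline. KHK stood at 11.99 and 10.2 CPM without and 19.0 and 17.0 CPM with doxycycline, a log2 difference of 0.70 that missed the threshold (adjusted p = 0.0646). The transporter and the kinase of fructose were each higher in both induced libraries, as were 21.4% of all genes, with SLC2A5 called and KHK not. G6PC3, of the same role as PCK1 and PCK2, stood at 75.8 and 77.3 CPM without and 73.6 and 76.8 CPM with doxycycline. Outside the list, HKDC1 changed by 1.19 ± 0.19 (SE, adjusted p = 0.0371, mean CPM 36.0 against 82.0) and CA12 by 0.83 ± 0.11 (SE, adjusted p = 0.0214, mean CPM 164 against 292).

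The median over all 39 members was 0.04. The glycolysis genes summed to 16758 and 16883 CPM without and 17316 and 18572 CPM with doxycycline. In the fit with no block 0 of 18 upper and lower glycolysis genes and 0 of 7 hypoxia genes were called, counts that the low share of all genes called would also give. An unadjusted p under 0.05 was reached by 12 of the 39 members, 3 of the 18 and 2 of the 7, beside 12.7% of all genes. Those 3 were HK2, PFKL and PGK1, with changes of 0.43, 0.17 and 0.19. DESeq2 called 6 members, beside 2.60% of all genes. A fit with the replicate number as a block, a pairing the labels do not state, called 12 members higher and 6 lower. In that fit 9.28% of all genes were called higher and 8.28% lower. With 2 libraries a group, these values do not show that the glycolysis and hypoxia genes were unchanged. Epithelial markers summed to 4503 to 4509 CPM without and 5833 to 6309 CPM with doxycycline, and fibroblast markers to 643 to 725 and 407 to 445 CPM. The part of either in these changes was not tested.

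**Figure D3:**
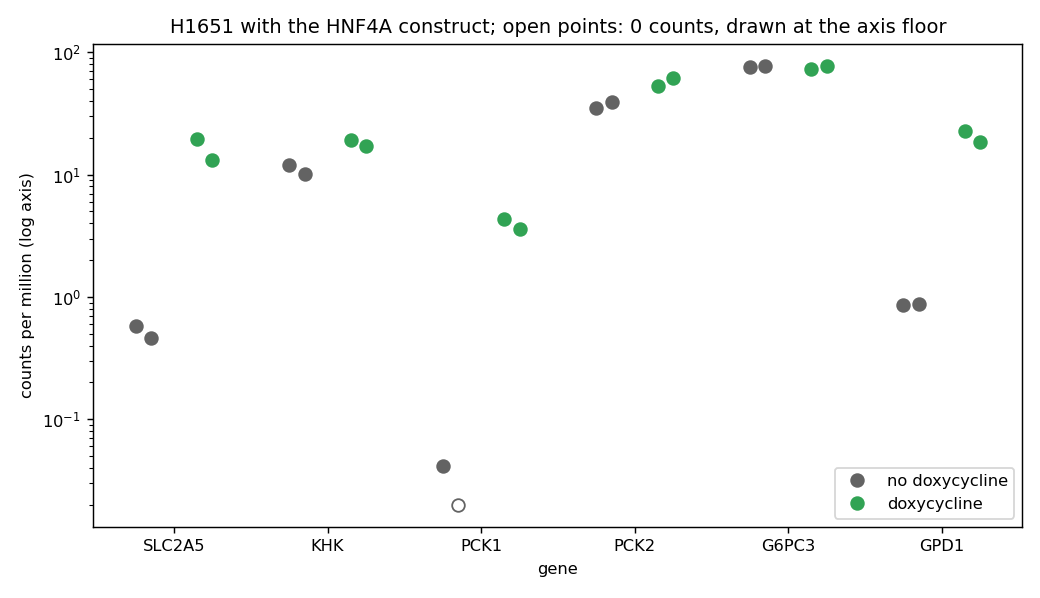
CPM on a log axis of 6 fructose, gluconeogenic and glycerol phosphate genes in H1651 with the HNF4A construct, 2 libraries per group; open points are libraries with 0 counts, drawn at the floor. The induced libraries (green) lie above the others (grey) for SLC2A5, KHK, PCK1, PCK2 and GPD1, by most for SLC2A5, PCK1 and GPD1, and those of G6PC3 overlap.

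In 1027B organoids trametinib lowered 10 of 37 tested members and raised 2, beside 13.2% of all genes lower and 13.5% higher. The median over members was -0.45 and over all genes -0.01. Among the called members, Gpd1 showed the most extreme change, from 78.6 and 88.8 CPM in vehicle to 266 and 248 CPM. Its log2 change was 1.62 ± 0.11 (SE, adjusted p = 0.000643). Khk also rose, from 6.196 and 6.71 CPM to 12.8 and 11.6, a change of 0.92 ± 0.18 (SE, adjusted p = 0.0136). Both treated libraries lay above both vehicle libraries in these called genes, as in 32.8% of all genes. Pfkp fell 3.05-fold, from 27.5 and 32.3 CPM to 9.21 and 10.4, a change of -1.61 ± 0.32 (SE, adjusted p = 0.0129). Hilpda went from 145 and 189 CPM to 38.1 and 74.3, a change of -1.57 ± 0.36 (SE, adjusted p = 0.0202). Slc2a3 went from 25.8 and 28.2 CPM to 13.7 and 8.81, a change of -1.26 ± 0.22 (SE, adjusted p = 0.00861). These called genes were lower in both treated libraries, as were 34.3% of all genes.

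Ndrg1 changed by -1.25 ± 0.37 (SE, adjusted p = 0.0484), Hk2 by -1.08 ± 0.28 (SE, adjusted p = 0.0303) and Hk1, the housekeeping hexokinase, by -1.002 ± 0.22 (SE, adjusted p = 0.0183). Pklr, which is better expressed here than in 3154, fell from 56.9 and 51.2 CPM to 31.7 and 26.3, a change of -0.90 ± 0.14 (SE, adjusted p = 0.00618). Slc2a1, Ldha and Slc16a1 were the other members called lower, at -0.73, -0.68 and -0.45. The second replicate of each group had more of the hypoxia genes, whose summed level was 2144 and 3351 CPM in vehicle, 1288 and 2185 in MRTX1133 and 1034 and 1805 in trametinib. With the replicate number as a block, 4 members were higher and 26 lower with trametinib, beside 21.9% and 23.0% of all genes in the same fit. Without the first trametinib library 3 members were called, and without the second vehicle library 4. Slc2a3, Pklr and Gpd1 were called whichever library was left out. Hnf4a, not deleted here, changed by -1.01 with trametinib and -0.76 with MRTX1133, and its part in these changes was not tested.

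MRTX1133 in the same organoids gave 3 calls of 37, 2 lower and 1 higher, beside 3.26% of all genes lower and 3.01% higher. Slc2a3 went to 8.43 and 8.52 CPM, a log2 change of -1.67 ± 0.22 (SE, adjusted p = 0.0129), Pklr to 34.6 and 30.2 CPM, a change of -0.74 ± 0.14 (SE, adjusted p = 0.034), and Gpd1 to 170.0 and 155 CPM, a change of 0.96 ± 0.11 (SE, adjusted p = 0.00946). These 3 were also called with trametinib against the same vehicle libraries. With the replicate block the count was 24, 1 higher and 23 lower, beside 11.4% of all genes higher and 12.7% lower in that fit. The lower ones included Ndrg1 at -0.82, Adm at -1.43 and Egln3 at -0.66, with blocked adjusted p of 0.000155, 0.000181 and 0.00097. Each of the 3 calls of the fit with no block was lost on leaving out at least 1 library, and 0 members were called without the first MRTX1133 library and 1 without the second vehicle library.

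The doses of the inhibitors differ, and so the direct comparison of 20 nM MRTX1133 with 10 nM trametinib is one of these doses. It gave 0 calls in edgeR for members and 0% for all genes, with log2 differences from -0.74 to 0.69. Khk and Gpd1 had an unadjusted p under 0.05, beside 16.2% of all genes, with differences of -0.74 ± 0.18 (SE, adjusted p = 0.15) and -0.66 ± 0.11 (SE, adjusted p = 0.0866), and DESeq2 called these 2, beside 5.66% of the genes it gave an adjusted p. With the replicate block 11 members differed, 8 higher and 3 lower in MRTX1133, beside 7.75% of all genes higher and 6.33% lower in that fit. Hk2 and Ndrg1 were higher, by 0.58 and 0.43 (blocked adjusted p = 0.00203 and 0.0047), and Gpd1 lower, at -0.66 (blocked adjusted p = 0.00324).

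Of the pathway genes outside the list, Ldhb, the heart lactate dehydrogenase subunit, changed in 1027B with trametinib by 3.67 ± 0.63 (SE, adjusted p = 0.008, mean CPM 0.235 against 2.9996) and Car12 by -2.09 ± 0.27 (SE, adjusted p = 0.00335, mean CPM 12.8 against 2.98). With MRTX1133, Eno3, the muscle enolase, changed by 0.97 ± 0.18 (SE, adjusted p = 0.0289, mean CPM 19.6 against 38.5), G6pdx, which opens the pentose phosphate pathway, by -0.96 ± 0.16 (SE, adjusted p = 0.0226, mean CPM 210.3 against 108), and Hif1a, the main HIF subunit, by -0.79 ± 0.10 (SE, adjusted p = 0.0125, mean CPM 508 against 293). The 4 leukocyte markers summed to 8.08 to 8.61 CPM in vehicle, 6.28 to 6.31 in MRTX1133 and 5.59 to 5.65 in trametinib. The epithelial markers summed to 9209 to 9390.4 CPM in vehicle, 8145 to 8360.4 in MRTX1133 and 7596 to 8435 in trametinib. The part of either in these changes was not tested.

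In 3311 cells trametinib lowered 14 of 41 tested members and raised 2, beside 19.6% of all genes lower and 19.4% higher. The glycolysis genes summed to 32066 and 31058 CPM in vehicle and 13506 and 20247 CPM with trametinib. Pck1, listed among the mouse tables in 3311 alone, had 69 and 80 counts in vehicle and 2 and 2 with trametinib (adjusted p = 0.00101), a ratio of 35.3 (95% interval 13.5 to 131). Adm fell from 15.6 and 31.7 CPM to 0.753 and 1.37, a log2 change of -4.48 ± 0.46 (SE, adjusted p = 0.000956). Hilpda fell from 47.7 and 113 CPM to 11.3 and 19.2, a change of -2.40 ± 0.43 (SE, adjusted p = 0.00599). In both genes the second library of each group was the higher one, and both treated libraries lay below both vehicle libraries, as in 36.6% of all genes.

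Aldoc fell 3.999-fold, from 256 and 317 CPM to 57.1 and 86.3, a change of -1.9996 ± 0.23 (SE, adjusted p = 0.00124). Ankrd37 changed by -1.37 ± 0.35 (SE, adjusted p = 0.0217), Gapdh by -1.29 ± 0.28 (SE, adjusted p = 0.0118), Gpi1, the isomerase after hexokinase, by -1.17 ± 0.22 (SE, adjusted p = 0.00709), and Pgk1 by -1.11 ± 0.31 (SE, adjusted p = 0.0278). Pck2 changed by -1.09 ± 0.13 (SE, adjusted p = 0.00141), Pdk4, a fasting-induced kinase of pyruvate dehydrogenase, by -1.09, and G6pc3, the ubiquitous glucose-6-phosphatase, by -1.04. The members that rose were Pfkfb2 and Pklr. Pfkfb2, which makes the activator of phosphofructokinase, went from 18.6 and 17.4 CPM to 31.3 and 30.3, a change of 0.78 ± 0.16 (SE, adjusted p = 0.00983). Pklr went from 27.2 and 44.8 CPM to 51.7 and 87.7, a change of 0.96 ± 0.31 (SE, adjusted p = 0.0452). Gpd1, called higher in 1027B, stood at 8.69 and 11.7 CPM and 10.6 and 10.2 CPM with overlapping groups.

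As in 1027B, the second replicate had more hypoxia transcript, 4369 and 7252 CPM in vehicle and 3203 and 5268 CPM with trametinib. Leaving out the second trametinib library raised the count of calls to 26. Gpi1, Aldoc, Pck1, Pck2, G6pc3, Hilpda and Adm were called whichever library was left out. Of 21 HIF factors and targets outside the list, 12 fell and 1 rose, beside 19.6% of all genes lower and 19.4% higher, among them Plod2, a collagen lysyl hydroxylase, by -2.51 ± 0.37 (SE, adjusted p = 0.00292, mean CPM 333 against 58.5), Ero1l by -2.49 ± 0.28 (SE, adjusted p = 0.00119, mean CPM 577 against 103) and Car12 by -2.33 ± 0.26 (SE, adjusted p = 0.00124, mean CPM 96.7 against 19.2). The 3 leukocyte markers listed summed to 4.22 to 4.87 CPM in vehicle and 0.951 to 1.54 CPM with trametinib, with Ptprc at 0, and the 4 fibroblast markers to 14.9 to 15.8 and 11.4 to 14.4 CPM. The 2 endothelial markers summed to 1.35 to 1.52 and 0.717 to 1.22 CPM. The part of these shifts in the changes was not tested.

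In H358 trametinib lowered 30 of 37 tested members and raised 2, beside 23.2% of all genes lower and 23.5% higher. The glycolysis genes summed to 15449 and 17418 CPM in vehicle and 5671 and 6315 CPM with trametinib. Every tested gene of lower glycolysis was called lower (6 of 6), as were 10 of 12 in upper glycolysis, 4 of 6 for pyruvate, 3 of 3 for gluconeogenesis and glycerol phosphate, 5 of 6 in the hypoxia response and 2 of 4 for sugar entry. LDHA, which makes lactate, fell 5.64-fold, from 1076 and 1302 CPM to 181 and 241, a log2 change of -2.50 ± 0.16 (SE, adjusted p = 2.54e-05). PFKFB4, a bifunctional enzyme that sets the level of a phosphofructokinase activator, fell from 67.9 and 60.6 CPM to 15.8 and 11.3, a change of -2.24 ± 0.17 (SE, adjusted p = 4.86e-05). EGLN3 fell from 68.8 and 76.5 CPM to 16.7 and 15.1, a change of -2.19 ± 0.13 (SE, adjusted p = 1.54e-05). For these 3 the replicates lay close together and the groups far apart.

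ENO1, the main enolase, fell 3.99-fold, from 4578 and 5004 CPM to 1109 and 1293, a change of -1.996 ± 0.12 (SE, adjusted p = 1.95e-05), and ENO2, its neuronal form, changed by -1.96 ± 0.13 (SE, adjusted p = 3.01e-05). PDK1 went from 44.1 and 52.0 CPM to 13.01 and 12.5, a change of -1.91 ± 0.14 (SE, adjusted p = 3.59e-05). HK2 went from 199.6 and 211 CPM to 61.3 and 51.9, a change of -1.86 ± 0.12 (SE, adjusted p = 2.27e-05). These called genes were lower in both trametinib libraries, as were 37.3% of all genes. ALDOA, the main aldolase, changed by -1.80 ± 0.14 (SE, adjusted p = 4.74e-05) and PGK1 by -1.71 ± 0.13 (SE, adjusted p = 4.04e-05). FBP1, the liver fructose bisphosphatase, changed by -1.05, PCK2 by -0.45 and G6PC3 by -0.45. KHK fell from 11.3 and 13.1 CPM to 5.82 and 6.39, a change of -1.0005 ± 0.17 (SE, adjusted p = 0.00205). The members called higher were PFKFB2, from 32.8 and 28.3 CPM to 54.3 and 61.0, by 0.91 ± 0.13 (SE, adjusted p = 0.000773), and PDK2, from 20.03 and 19.2 CPM to 37.8 and 31.5, by 0.82 ± 0.14 (SE, adjusted p = 0.00184). SLC2A1 was not called, with a log2 change of 0.03.

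In H358, 26 of the 32 calls held whichever library was left out. Human pseudogene rows of GAPDH, PGK1, PGAM1, ENO1, LDHA, ALDOA, TPI1 and PKM carried at most 1.49% of the counts of the gene itself. Outside the list, SLC2A4, the insulin-regulated glucose transporter, changed by -2.33 ± 0.35 (SE, adjusted p = 0.00112, mean CPM 1.77 against 0.357), STC2 by -1.99 ± 0.14 (SE, adjusted p = 3.34e-05, mean CPM 172 against 43.5) and the vessel growth factor VEGFA by -1.98 ± 0.11 (SE, adjusted p = 1.49e-05, mean CPM 722 against 183). The 6 fibroblast markers summed to 40.8 to 49.5 CPM in vehicle and 246 to 348 CPM with trametinib, and the epithelial markers to 5676 to 5961 and 4071 to 4317 CPM. The 4 endothelial markers summed to 12.1 to 14.4 CPM in vehicle and 21.1 to 21.2 CPM with trametinib, and the 5 leukocyte markers to 1.10 to 1.24 and 1.49 to 1.83 CPM. The part of these shifts in the fall of the glycolytic genes was not tested.

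H1651 was given the same dose for the same time. There edgeR, in the fit with no block, called 0 of 38 members and 0% of all genes, 2 members had an unadjusted p under 0.05 (KHK at 0.40 and SLC16A3 at -0.60), and DESeq2 called 0. Over all genes these shares were 3.27% and 0.304%, and with 2 libraries a group the values do not show that the members were unchanged. With the replicate number as a block, a pairing the labels do not state, 4 members were called higher and 9 lower. In that fit 4.90% of all genes were called higher and 5.39% lower. The median over members was -0.02, and the changes ran from -0.65 to 0.40. LDHA stood at 1277 and 1313 CPM in vehicle and 1162 and 1195 CPM with trametinib, a log2 difference of -0.14 ± 0.09 (SE). PGK1 stood at 339 and 339 CPM and 333 and 347 CPM. The glycolysis genes summed to 18222 and 19038 CPM in vehicle and 16810 and 18018 CPM with trametinib. Fibroblast markers summed to 426 to 520 CPM in vehicle and 501 to 635 CPM with trametinib. The epithelial markers summed to 5936 to 6712 and 6076 to 7000 CPM. The part of either in these values was not tested.

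The difference between the lines was tested directly, in a fit of both trametinib tables together that was added after the values had been seen. The change in H358 was below that in H1651 for 22 of 38 members and above it for 1, beside 9.86% and 9.43% of all genes. LDHA differed by -2.34 ± 0.20 (SE, adjusted p = 0.000442) on the log2 scale, PFKFB4 by -2.30 ± 0.27 (SE, adjusted p = 0.0013), ENO2 by -2.04 ± 0.24 (SE, adjusted p = 0.00117), EGLN3 by -1.93 ± 0.18 (SE, adjusted p = 0.000562) and ENO1 by -1.91 ± 0.15 (SE, adjusted p = 0.000365). PDK2 was the 1 member above, by 0.66 ± 0.17 (SE, adjusted p = 0.0307). All 6 members of lower glycolysis were among the 22. The inhibitor's own target genes also differed, DUSP6 by -4.56 and ETV4 by -4.97 (adjusted p = 0.000279 and 0.0092). The medium differs between the lines, so line and medium cannot be told apart, nor can the runs in which the 2 tables were made.

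**Figure D4:**
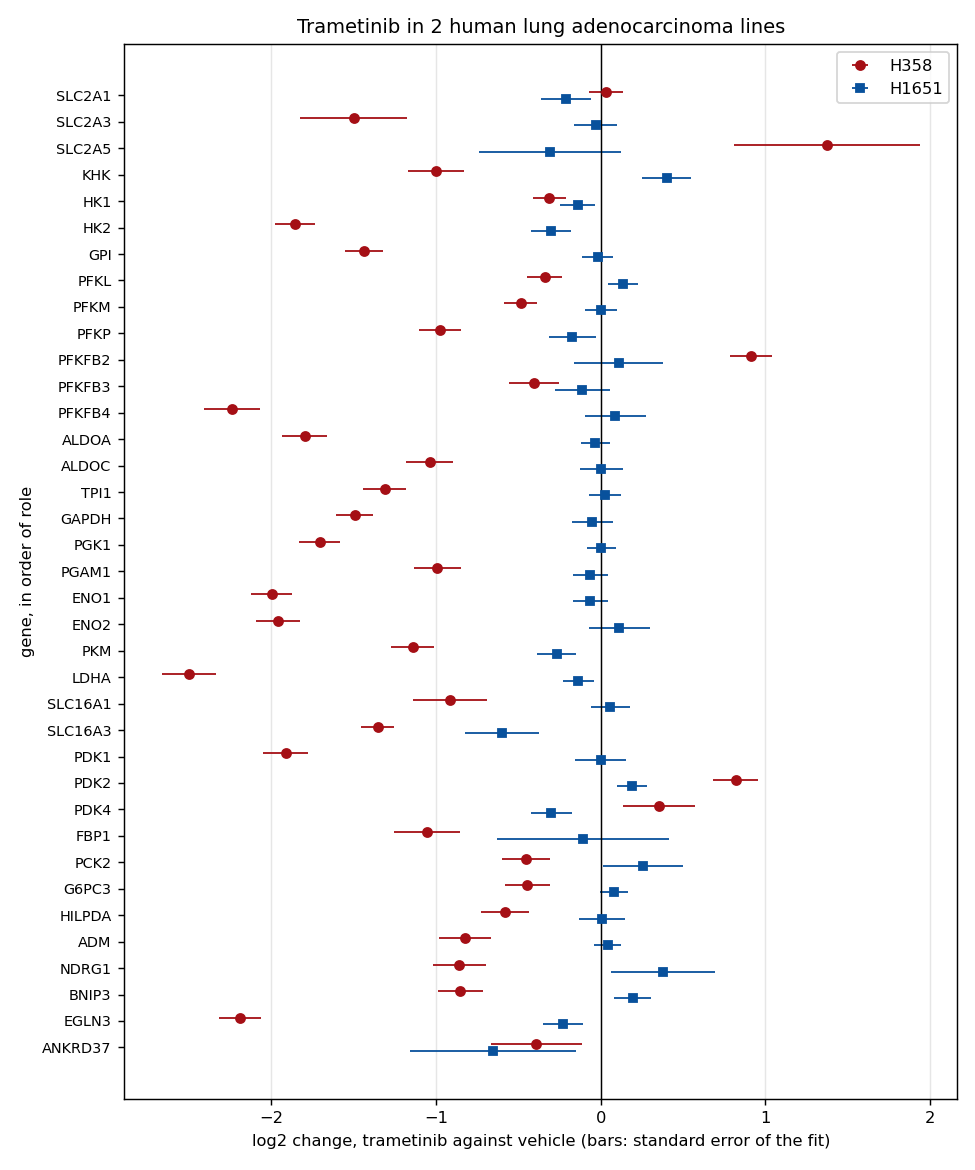
Log2 change with trametinib (x axis, bars are standard errors) of each member tested in both human lines, in order of role, in H358 (red circles) and H1651 (blue squares). The H358 points of the glycolytic enzymes lie left of the H1651 points, with LDHA at -2.50 against -0.14, and those of SLC2A1, SLC2A5, PFKFB2, PDK2, PDK4 and ANKRD37 lie to the right.

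Across the 11 comparisons with a control, no member was called in all. Pfkp and Hilpda were called lower in 7 and higher in 0. Slc2a3, Pgk1, Slc16a1 and Ndrg1 were called lower in 6 and higher in 0, and Gpd1 was called higher in 5 of the 10 in which it was tested and lower in 0. These counts are not independent, since 3154 and 1027B comparisons share libraries. In different cultures, Khk was called higher in 1027B with trametinib and lower in H358, at 0.92 and -1.0005. Pklr was called lower in 1027B and higher in 3311, at -0.90 and 0.96. The Khk call in 1027B was lost without the first trametinib or the first vehicle library, with adjusted p up to 0.0839, and the Pklr call in 3311 without the second trametinib or the first vehicle library, with adjusted p up to 0.193. Pck1 rose with HNF4A in H1651 and fell with trametinib in 3311. Pdk2 fell with Hnf4a deletion in 3154, at -1.66 in vehicle (adjusted p = 0.0624 without the second library of 4OHT and vehicle), and rose with trametinib in H358. Pfkfb3, which makes the activator of phosphofructokinase in many tumours, was tested in all 11 and called in 0 by edgeR, with log2 changes from -1.04 to 0.26. Its unadjusted p was under 0.05 in 3 (both 48-hour deletion comparisons and H358), and DESeq2 called it lower in the same 3. Ca9, Slc2a2, Slc2a5, Pck1, Pdk4 and Fbp1 were tested in 4 comparisons or fewer.

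**Figure D5:**
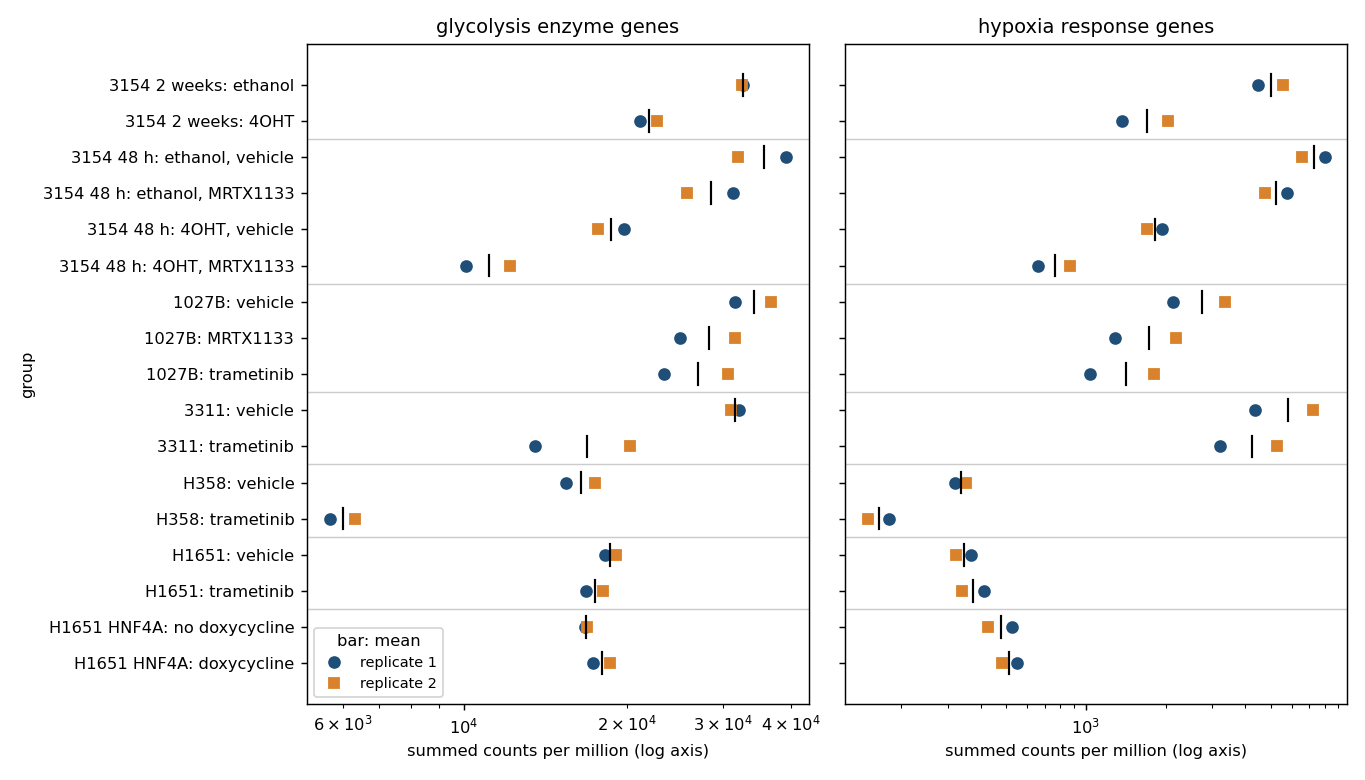
Summed CPM (log axes) in all 34 libraries, by group, with the mean as a bar. The glycolysis genes from hexokinase to pyruvate kinase, with the Pfkfb regulators, are on the left. The hypoxia response genes are on the right. Glycolysis is lowest in H358 with trametinib, at 5671 and 6315 CPM, and among mouse groups in 3154 given 4OHT and MRTX1133, at 10099 and 12154 CPM, against 39224 and 32049 CPM with ethanol and vehicle.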

How the data were processed

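Poly(A) RNA from 34 cultures was sequenced as directional paired-end libraries, per the labels' protocols. The deposited values are raw read counts per gene, made by the authors with cutadapt 3.5, STAR 2.7.6a and featureCounts 1.6.3, per the submitters' processing notes, which name mm10, mm39 and hg38 without saying which table used which mouse build. Rows with no gene name, at most 0.597% of a library, were kept in the fits and in the library totals. The counting's use of strand is not given in the sources used here.

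Each of the 7 tables was fitted apart with edgeR 4.0.16 in R 4.3.3, using filterByExpr, TMM factors and the quasi-likelihood test, two-sided, with Benjamini-Hochberg adjustment over all genes tested. Genes are called at an adjusted p under 0.05. The standard error (SE) is the log2 change divided by the root of the F value. CPM are counts per 1000000 of a library's total count times its TMM factor, with rows of no gene name included in the total. Summed-count ratios of low genes have exact 95% intervals, for counting error alone. The edgeR fit was first tested on simulated counts for 2 groups of each table. The replicate block, DESeq2, the interaction and the joint fit were not tested in this way. Replicate correlations of deviations in 1027B were 0.243, 0.372 and 0.414 over its pairs of groups, so its numbers were taken as pairs, from the data and not the labels, and blocked values stand beside its results. Library totals of 19692517 to 45284286 counts and a biological coefficient of variation of 0.0949 to 0.193 set the precision, with 2 libraries a group.

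The alternatives were DESeq2 1.42.0, relative-log-expression and upper-quartile scaling, no filter, at least 10 counts in every library, the replicate block, only the groups compared, and leaving out each library. The joint fit of both human trametinib tables was added after the data were seen. The 43 genes and all other lists were chosen with earlier results of these data known. By rule, full values went to called members with a log2 change of at least 1 in size and at least 1 CPM, at most 8 a comparison, then to members called the same way in 4 or more comparisons or opposite ways in different cultures. From other pathway lists, at most 3 called genes a comparison were named. Some items are not reported here. Other members in the text were picked after their values were seen.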

Additional observations from a re-analysis of the deposited data

Results flagged for a closer look

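Khk and Pklr moved in opposite directions with trametinib in different cultures. Khk was higher in 1027B by 0.92 on the log2 scale and lower in H358, at -1.0005, and Pklr was lower in 1027B, at -0.90, and higher in 3311, at 0.96. In each case both treated libraries lay on the same side of both vehicle libraries. This was so for 32.8% of all genes above and 34.3% below in 1027B, 37.9% above in 3311 and 37.3% below in H358. The calls of Khk in 1027B and Pklr in 3311 were each lost on leaving out either of 2 libraries, with adjusted p up to 0.0839 and 0.193. The difference between the cultures was not tested, since each table was fitted apart, and the doses differ.

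In the joint fit of the human trametinib tables, 23 members changed differently in H358 and H1651 by the interaction test. Over all genes the change in H358 was called below that in H1651 for 9.86% and above it for 9.43%. The change in H358 minus that in H1651, on the log2 scale, was -1.43 for SLC2A3 and -1.37 for KHK among the sugar entry genes. In upper glycolysis it was -1.53 for HK2, -1.39 for GPI, -0.46 for PFKM, -0.78 for PFKP, -2.30 for PFKFB4, -1.73 for ALDOA, -1.01 for ALDOC and -1.31 for TPI1. In lower glycolysis it was -1.42 for GAPDH, -1.69 for PGK1, -0.90 for PGAM1, -1.91 for ENO1, -2.04 for ENO2 and -0.85 for PKM. For the pyruvate genes it was -2.34 for LDHA, -0.95 for SLC16A1, -1.89 for PDK1 and 0.66 for PDK2, and for the hypoxia response -0.84 for ADM, -1.02 for BNIP3 and -1.93 for EGLN3.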

How the results depend on the processing

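Of 162 called member changes, 150 kept their call under every other test, scaling and filter that could be run, and none of the 484 changes reversed. The count of members called moved by more than 1.5 times as follows. With the replicate block it was 29 at 2 weeks after 4OHT (0 higher and 29 lower, beside 14.7% and 16.8% of all genes in that fit), 18 with doxycycline (12 higher and 6 lower, beside 9.28% and 8.28%), 13 with trametinib in H1651 (4 higher and 9 lower, beside 4.90% and 5.39%), 30 with trametinib and 24 with MRTX1133 in 1027B, and 11 between these inhibitors. In the 2-group tables and the 48-hour 3154 table the replicate numbers share only a number: the correlations of replicate differences were 0.427 (2 weeks), 0.126 (3311), 0.318 (doxycycline), 0.623 (H1651) and 0.318 (H358), and ran from -0.251 to 0.549 in the 48-hour 3154 table. With DESeq2 it was 5 for MRTX1133 in 1027B, beside 1636 of the 14272 genes given an adjusted p there. The DESeq2 count of members was 2 between the inhibitors and 1 for MRTX1133 with ethanol. With at least 10 counts in every library it was 2 for doxycycline, since PCK1 leaves the test and PCK2 loses its call. In a fit of only the groups compared it was 27 for MRTX1133 after 4OHT. The cause of the other moves was not tested. Leaving out a library assumes that the lone sample varies like the other groups. The counts then ran from 6 to 24 at 2 weeks, from 17 to 34 for the 48-hour deletion in vehicle and from 28 to 30 under MRTX1133, from 0 to 2 for MRTX1133 with ethanol (2 without the second ethanol vehicle library) and from 0 to 2 after 4OHT. They ran from 3 to 12 for trametinib and from 0 to 2 for MRTX1133 in 1027B, from 13 to 26 in 3311, from 4 to 6 with doxycycline, from 28 to 33 in H358, from 0 to 1 in H1651 (1 without the first vehicle library) and from 17 to 24 for H358 minus H1651. With 2 libraries a group, a member that missed the threshold is not shown to be unchanged, and low genes such as Pklr in 3154 and PCK1 have wide intervals.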
